A study of Bos taurus with 4 samples.

Results

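The peroxiredoxins PRDX1 to PRDX6, the glutathione peroxidases GPX1 and GPX4 and the superoxide dismutases SOD1 and SOD2 were followed in the RNA of buffalo spermatozoa. Members were all sample probes of the array that carried 1 of these 10 gene names, of 32429 names in all, which gave 25 probes on 26 spots out of 51282 probes. The RNA came from Percoll-selected spermatozoa of Murrah breeding bulls, and each of the 4 samples was a pool of RNA from 2 bulls. The bulls had been rated by conception rate, and the labels give 2 high-fertile and 2 low-fertile pools, with no treatment in either group. The bulls in a pool are not listed, so the pool is the replicate, and each bull's own level is not known. Each pool was labelled with Cy3 from an oligo dT primer and hybridized to 1 array of bovine 60-base probes, so buffalo RNA was read with cattle sequences. High-fertile arrays occupied one row of the slide and low-fertile arrays the other, and row and fertility group cannot be told apart.

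Superoxide leaks from mitochondria and is made by NADPH oxidases, and superoxide dismutases turn it into hydrogen peroxide. Peroxiredoxins reduce peroxides through a reactive cysteine, most of them with electrons from thioredoxin, and glutathione peroxidases do so with glutathione. Spermatozoa hold little cytoplasm and many polyunsaturated lipids, which are easily oxidized, and their RNA is largely left over from spermatogenesis.

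Of the 10 genes, PRDX6 alone had probes past the test: its 3 tested probes were lower in the low-fertile pools, by 0.74 at the brightest on the log2 scale. All 3 qualified for testing through the high-fertile pools alone, and none was above background in both low-fertile pools, so the filter itself favoured a lower call. PRDX2, PRDX5, GPX1 and GPX4 had a probe above background in every pool, and none of their 7 tested probes passed the test. When only such probes were tested, no PRDX6 probe remained and GPX1 passed, 0.56 higher in the low-fertile pools, though it was only 0.35 higher without low-fertile pool 2 and 0.13 higher with spike-in scaling. PRDX1, PRDX4, SOD1 and SOD2 had no probe above background in any pool, and PRDX3 had 1 in a single low-fertile pool.

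The probe sequences behind these values were read from the deposited scanner files, with positions on the cattle build Btau_3.1 as those files give them. The GPX1 probe at base 537 of the transcript and a probe of the opposite strand are printed because the second is the exact reverse complement of the first. Capitals mark the 12 bases at the start of the first probe and their complement at the end of the second. The PRDX6 probe is the called member with the lowest adjusted p, and the PRDX5 and GPX4 probes are those with signal in every pool or the other tested probe of GPX4. These carry no capitals.
GPX1 A_73_P031771, chr22:51685240-51685299, plus strand: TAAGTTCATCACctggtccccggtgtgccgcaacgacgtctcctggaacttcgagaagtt
GPX1 A_73_P098966, same positions, minus strand: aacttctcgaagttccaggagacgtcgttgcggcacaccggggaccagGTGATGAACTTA
PRDX6 A_73_P284036, chr16:51951854-51951913, plus strand: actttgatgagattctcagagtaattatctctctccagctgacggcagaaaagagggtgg
PRDX5 A_73_P452601, chr29:44399178-44399928, plus strand: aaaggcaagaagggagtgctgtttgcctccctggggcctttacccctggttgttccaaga
GPX4 A_73_106948, chr7:42614859-42614990, plus strand: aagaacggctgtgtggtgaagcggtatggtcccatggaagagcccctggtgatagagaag
GPX4 A_73_P154352, chr7:42614464-42614523, plus strand: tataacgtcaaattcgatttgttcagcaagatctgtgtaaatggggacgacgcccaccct
The PRDX5 probe and the first GPX4 probe are laid over 751 and 132 bases of the genome, more than their 60 bases, so both cross an exon junction, as 5 of the 25 member probes do.

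The 75th percentile of the processed signal was 36.7 and 37.1 on the high-fertile arrays and 37.0 and 32.7 on the low-fertile arrays. Low-fertile pool 2 had the fewest probes well above background, 13033 against 23228 to 25642 in the other pools. Among the sperm markers, OAZ3, ODF1, TNP1 and PRM1 were above background in all 4 pools, 7 of 17 were above it in none, and PRM1 alone passed the test, 0.67 higher in the low-fertile pools. Of the markers of other cells, 10 of 12 leukocyte genes and 6 of 8 epithelial genes could be tested. The median normalized level of the tested leukocyte markers was 1.61 and 1.76 in the high-fertile and 1.81 and 1.87 in the low-fertile pools. Epithelial markers had medians of 2.31 and 2.32 against 2.63 and 2.78. The 6 tested sperm markers had lower medians than both, 0.43 and 0.58 against 0.77 and 0.96. The leukocyte antigen PTPRC was 0.78 higher in the low-fertile pools (adjusted p = 0.016, limma), its other tested probe was at 0.18, and the other 9 tested leukocyte genes and all 6 epithelial genes did not pass. Of the red cell genes HBB passed as higher there, with high-fertile pool 1 not above background, and CA1 passed as lower, above background in the high-fertile pools alone. The part of other cells in the differences below was not tested, and in pooled RNA fewer cells of a type and less RNA per cell cannot be told apart.

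**Figure D1:**
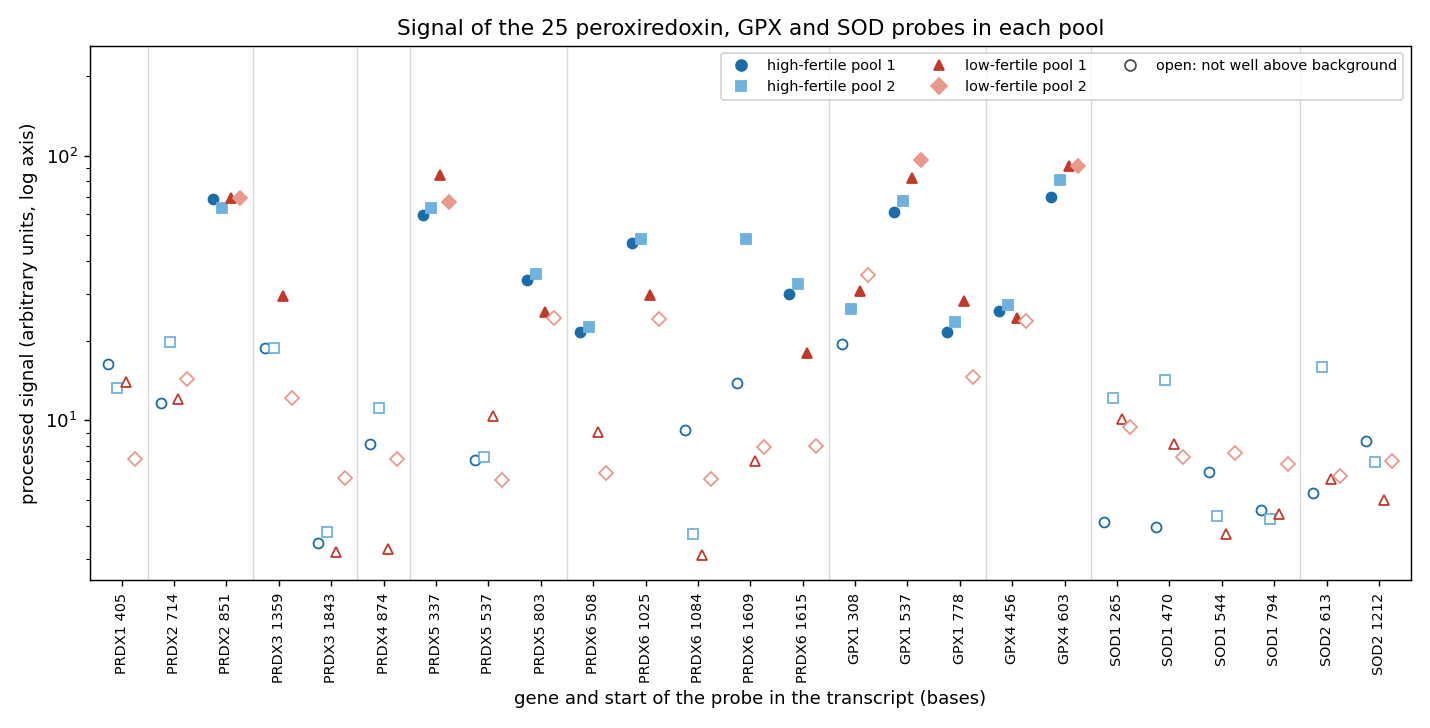
Processed signal (arbitrary units, log axis) of the 25 probes in each of the 4 pools, ordered by gene and by the start of the probe in the transcript. Filled symbols were well above background and open ones were not. The PRDX1, PRDX4, SOD1 and SOD2 symbols are all open, at 16.3 or below.

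Testing was limited to probes that the scanner software found well above background in both pools of a group, and this left 10 of the 25 member probes, of 5 genes. In all, 10, 12, 11 and 4 member probes carried that mark in high-fertile pools 1 and 2 and low-fertile pools 1 and 2. Only 4 probes carried it in all pools, and 12 in none. Signals below are the processed signals of the scanner, with the background subtracted, and differences are low-fertile minus high-fertile on the log2 scale after each array's 75th percentile was subtracted. Adjusted p-values come from limma with Benjamini-Hochberg adjustment over all 21033 tested probes. Of the 10 tested member probes 3 passed an adjusted p of 0.05, all of PRDX6 and all lower, and 26.8% of all tested probes passed. Lower calls made up 17.6% of all tested probes and higher calls 9.22%, but of the 12552 probes above background in every pool, tested alone, 1625 were lower and 2714 higher. The 10 probes were 4 above background in every pool, of which none passed, and 6 that qualified through the high-fertile pools alone, of which 3 passed. A probe of the second kind is dim in a low-fertile pool by selection, and of all 8145 such probes 30.1% passed as lower, so the direction of these 3 calls is not independent of the filter. The median difference of the 10 probes was -0.06. The groups did not overlap at 7 of the 10 probes, with the low-fertile pools below at 4 of them and above at 3, against 69.1% of all tested probes. At an unadjusted p below 0.05 the count was 6 of 10, against 41.6% of all tested probes. For a single value with 2 pools a group, the smallest two-sided p of an exact permutation test is 0.333.

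**Figure D2:**
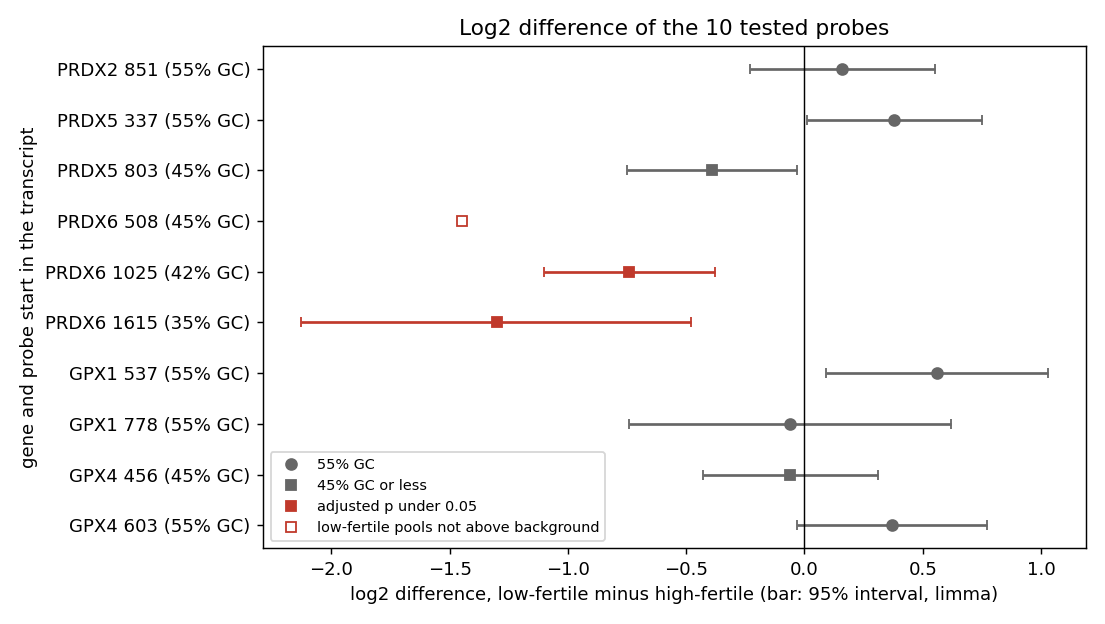
Log2 difference, low-fertile minus high-fertile, of the 10 tested probes, with the 95% interval from limma. The 3 PRDX6 probes are in red; the open one, above background in neither low-fertile pool, is drawn with no interval at its measured -1.45, the others lie at -0.74 and -1.30, and the probes of the other genes lie between -0.39 and 0.56.

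PRDX6 has a single reactive cysteine, relies on glutathione and also has a phospholipase activity. Its 5 probes lie on chromosome 16. The probe at base 508, printed above, had signals of 21.6 and 22.5 in the high-fertile and 9.07 and 6.35 in the low-fertile pools. It was well above background in both high-fertile pools and in neither low-fertile pool, and the groups did not overlap. The measured log2 difference was -1.45 (adjusted p = 0.00451, limma). Its size is uncertain, since the low-fertile values are not above background. It was -0.34 with normexp background correction and -1.28 without low-fertile pool 2. In low-fertile pool 2 the scanner's own error on this signal was 6.22, about as large as the signal.

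The brightest PRDX6 probe, at base 1025 (chr16:51953665-51953724), gave 46.7 and 48.3 in the high-fertile and 29.8 and 24.1 in the low-fertile pools. Only low-fertile pool 2 fell short of the background mark here. The difference was -0.74 (SE 0.144, 95% interval -1.10 to -0.38, adjusted p = 0.0177). The probe at base 1615 (chr16:51954255-51954314) gave 30.1 and 32.7 against 18.0 and 7.98. Its 2 low-fertile pools were far apart, and the difference was -1.30 (SE 0.33, 95% interval -2.13 to -0.48, adjusted p = 0.0385).

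The fourth PRDX6 probe to reach background in any pool starts at base 1609 and shares 54 bases with the probe at base 1615. The bases they do not share are AGTGGG at the start of the first and TGTCAA at the end of the second. It gave 13.9 and 48.6 in the high-fertile and 7.03 and 7.95 in the low-fertile pools, and only high-fertile pool 2 was well above background, so it was not tested. High-fertile pool 1 was thus above background at the probe of base 1615 and not at this one, although 54 of the 60 bases are the same. The fifth probe, at base 1084, gave 9.24, 3.72, 3.11 and 5.99 and was above background in no pool.

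Calls at 2 of the 3 PRDX6 probes moved with the choice of pools. Without low-fertile pool 2, the difference was -0.81 (adjusted p = 0.0417) at base 1615 and -0.68 (adjusted p = 0.0592) at base 1025, and without high-fertile pool 1 or high-fertile pool 2 neither passed (adjusted p = 0.0776 to 0.133). Such fits leave 1 pool in a group, which is assumed to vary like the others. With normexp background correction, which adds an offset before the log, all 3 probes passed with smaller differences, -0.34 at base 508, -0.37 at base 1615 and -0.30 at base 1025.

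PRDX5, found in mitochondria, peroxisomes and the cytosol, gave opposite signs at its 2 tested probes. The exon-crossing probe at base 337 gave 59.6 and 63.5 in the high-fertile and 84.7 and 67.1 in the low-fertile pools. It was well above background in all 4 pools and both low-fertile values were the higher ones, but the difference of 0.38 did not pass (SE 0.148, 95% interval 0.01 to 0.75, adjusted p = 0.114), and it was -0.05 when arrays were scaled on spike-in probes. The probe at base 803 (chr29:44400640-44400699) gave 33.8 and 35.9 against 25.7 and 24.3, with low-fertile pool 2 not above background. Here both low-fertile values were the lower ones, and the difference of -0.39 did not pass either (SE 0.144, 95% interval -0.75 to -0.03, adjusted p = 0.0985). It did pass with spike-in scaling (-0.82, adjusted p = 0.011) and with normexp correction (-0.23, adjusted p = 0.0237).

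The differences at these PRDX5 probes were 0.77 apart (exact two-sided permutation p = 0.333, the smallest possible), with low-fertile pool 2 not above background at the second. The third PRDX5 probe, which starts at base 537 and crosses a junction, stayed at 5.98 to 10.4 and was above background in no pool.

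PRDX2, an abundant cytosolic peroxiredoxin of red cells and other tissues, did not differ beyond the spread between pools. Its probe at base 851 (chr7:11002245-11002304) was printed on 2 spots, which gave 66.7 and 71.2 in high-fertile pool 1, 68.0 and 59.0 in high-fertile pool 2, 65.2 and 73.3 in low-fertile pool 1 and 73.1 and 66.1 in low-fertile pool 2. The 2 spots of an array differed by 0.09 to 0.20 on the log2 scale, as much as the groups did. The difference was 0.16 (SE 0.156, 95% interval -0.23 to 0.55, adjusted p = 0.486), with groups that overlapped, and it was -0.27 with spike-in scaling. A second PRDX2 probe, at base 714, gave 11.6 to 19.7 and was above background in no pool.

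The other peroxiredoxins were at or near background. PRDX3, the mitochondrial peroxiredoxin, gave 18.8 and 18.8 in the high-fertile and 29.4 and 12.2 in the low-fertile pools at base 1359 (chr26:39793704-39793763), above background in low-fertile pool 1 alone. The low-fertile pools lay on both sides of the high-fertile ones. A further PRDX3 probe is placed by the files on another chromosome (chr8:23090060-23090119) and gave 3.19 to 6.05. PRDX1, a cytosolic peroxiredoxin, gave 16.3, 13.3, 14.0 and 7.13, and PRDX4, the one of the endoplasmic reticulum, gave 8.15, 11.1, 3.28 and 7.16, above background in no pool. With 1 probe each, these 2 genes have no level here beyond not well above background.

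GPX1, the selenoprotein that reduces hydrogen peroxide in the cytosol, was measured on both strands. The probe at base 537 gave 61.1 and 67.2 in the high-fertile and 82.2 and 96.0 in the low-fertile pools, above background in all 4. Both low-fertile pools were higher, and the difference of 0.56 (SE 0.188, 95% interval 0.09 to 1.03) did not pass the test (adjusted p = 0.0811). When only probes above background in every pool were tested, it passed (adjusted p = 0.0391), as did 34.6% of 12552 probes. It also passed with normexp correction (0.27, adjusted p = 0.0301), with an intensity trend (adjusted p = 0.0445) and without low-fertile pool 1 (0.76, adjusted p = 0.0418). It did not pass without low-fertile pool 2 (0.35, adjusted p = 0.23) or with spike-in scaling (0.13, adjusted p = 0.51). Its reverse complement gave 19.5 and 26.3 against 30.8 and 35.5, above background in high-fertile pool 2 and low-fertile pool 1 only, and was not tested.

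The third GPX1 probe, at base 778 (chr22:51685481-51685540), gave 21.5 and 23.5 in the high-fertile and 28.3 and 14.6 in the low-fertile pools. Its low-fertile pools lay on both sides of the high-fertile ones, and the difference was -0.06 (SE 0.272, 95% interval -0.74 to 0.62, adjusted p = 0.891). It was 0.33 without low-fertile pool 2, which was not above background, and 0.03 after quantile normalization.

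GPX4 reduces lipid hydroperoxides in membranes and forms much of the capsule around the mitochondria of the sperm midpiece. The exon-crossing probe at base 603 gave 69.6 and 81.0 in the high-fertile and 91.4 and 91.1 in the low-fertile pools, above background in all 4. The groups did not overlap, but the difference of 0.37 did not pass (SE 0.16, 95% interval -0.03 to 0.77, adjusted p = 0.145), and it was -0.06 with spike-in scaling. The probe at base 456 gave 25.8 and 27.4 against 24.4 and 23.7, with low-fertile pool 2 not above background. Its difference was -0.06 (SE 0.147, 95% interval -0.43 to 0.31, adjusted p = 0.777), with a sign that turned to 0.01 under normexp correction or without low-fertile pool 1 and to 0.10 after GC correction. With spike-in scaling it was -0.49 and passed (adjusted p = 0.039).

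SOD1, the copper and zinc enzyme of the cytosol, had 4 probes on chromosome 1 (starts at bases 265, 470, 544 and 794), and SOD2, the manganese enzyme of mitochondria, had 2 on chromosome 9 (bases 613 and 1212). No SOD probe was well above background in any pool. The SOD1 signals ran from 3.73 to 14.2 and the SOD2 signals were at most 15.9. A further SOD1 probe, annotated by an Ensembl transcript alone and so outside the members, gave 3.35 to 6.04 and was above background in no pool either. No difference between the groups can be given for either gene.

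The sign of a tested member probe's difference split by the GC content of the probe, with GPX1 at base 778 as the exception. The 5 tested members with 55% GC (PRDX2, PRDX5 at base 337, both GPX1 probes and GPX4 at base 603) had a median difference of 0.37, with 1 of 5 below 0 and none called. The 5 with 45% GC or less (the PRDX6 probes tested, PRDX5 at base 803 and GPX4 at base 456) had a median of -0.74, with 5 of 5 below 0 and 3 called, and all 5 had qualified through the high-fertile pools alone. All tested probes showed the same order: a median of 0.23 over 4330 probes at 55% GC, of which 25.6% were below 0, and of -0.24 over 12225 probes at 45% or less, of which 66.2% were below 0. Among probes above background in every pool, the medians were 0.27 (20.1% below 0) and -0.01 (51.2% below 0). Lower calls made up 27.8% of all tested probes at 45% or less and 2.84% of those at 55%.

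Within genes, PRDX5 and GPX4 each had 1 tested probe at 55% GC and 1 at 45%, and in both the former had the higher difference. Of 430 genes with tested probes at both values, 64.9% had the higher difference at 55%, with a median gap of 0.20. When each array was corrected for probe GC content, PRDX6 passed the test at base 508 alone (adjusted p = 0.00212). It was at -1.17 at base 1615 (adjusted p = 0.06) and at -0.41 at base 1025 (adjusted p = 0.221). GPX1 at base 537 was then at 0.42 (adjusted p = 0.275).

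**Figure D3:**
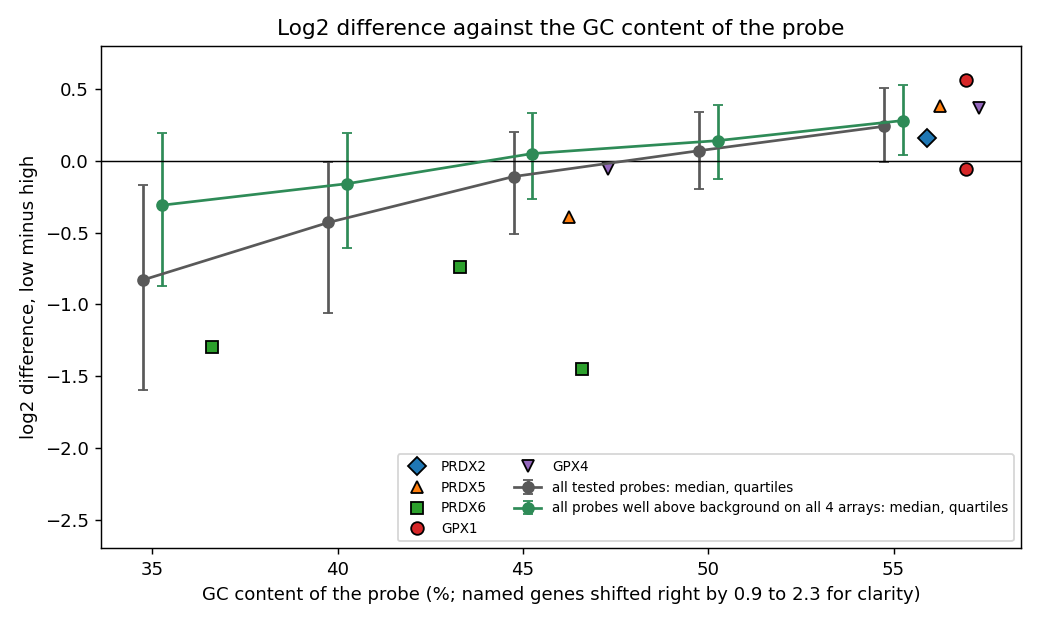
Log2 difference, low-fertile minus high-fertile, against the GC content of the probe (%), for the 10 tested member probes and as medians with quartiles of all probes in 5 GC classes. The median of all tested probes goes from -0.83 in the lowest class to 0.24 in the highest, the PRDX6 probe of 45% GC lies at a measured -1.45, below the lower quartile of its class (-0.51), and the PRDX6 probes at -0.74 and -1.30 lie within the quartiles of theirs.

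The polyadenylation hexamer AATAAA, searched on both strands, stood on the forward strand of 4 of the 25 member probes (PRDX6 at bases 1609 and 1615, PRDX5 at base 803 and SOD1 at base 794), against 8.35% of all 51282 probes. Both PRDX6 probes overlap and hold the same copy of the hexamer, so that stretch is counted more than once. On the reverse strand the hexamer stood in 1 member, PRDX1, against 3.30% of all probes. A match describes the letters of the probe and is no mapped cleavage site.

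The partners of these enzymes were taken from lists of 82 other redox genes, of which 77 were on the array and 45 had a tested probe. Read at the brightest tested probe of each gene, 8 genes were lower in the low-fertile pools, 3 were higher and 34 did not pass. Of the 32 genes whose brightest probe was above background in every pool, tested alone with such probes, 5 were lower and 6 higher, where 34.6% of all probes of that fit passed, more of them higher than lower. Of the 8 lower genes MSRB2, SESN2, GSTA4 and GSTA3 had qualified through the high-fertile pools alone, which favours a lower call. These 11 calls are 24.4% of the genes tested, against 26.1% of all 16685 genes with a tested probe, of which 16.6% were lower and 9.53% higher. The median difference of the 45 genes was -0.08, against 0.01 over all genes.

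Of the thioredoxin system, which recycles peroxiredoxins, 8 of 17 genes on the array were tested, 2 were lower and none was higher. MSRB2, a mitochondrial methionine sulfoxide reductase, went from 19.9 and 29.0 in the high-fertile to 12.8 and 5.97 in the low-fertile pools. Its measured log2 difference was -1.37 (adjusted p = 0.0385, limma), of uncertain size, since neither low-fertile value was above background. The difference was -0.91 without low-fertile pool 2 and -0.25 with normexp correction. SESN2, a stress-induced sestrin, went from 60.6 and 55.7 to 37.9 and 27.5 (-0.76, SE 0.168, adjusted p = 0.0257), but its other tested probe was at 0.91. Thioredoxin itself (TXN) and sulfiredoxin (SRXN1), which repairs overoxidized peroxiredoxins, were above background in no pool.

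Of the glutathione system, which supplies the electrons for GPX1, GPX4 and PRDX6, 16 of 27 genes on the array were tested, 3 were lower and 1 was higher. GSR, the enzyme that regenerates reduced glutathione, went from 210 and 126 to 356 and 305 (1.11, SE 0.266, adjusted p = 0.0332), and its other tested probe was at -0.26. Without high-fertile pool 2 it was at 0.73 (adjusted p = 0.0824). Glutaredoxin GLRX, which uses glutathione to reduce protein disulfides, went from 103 and 96.7 to 50.2 and 33.7 (-1.19, SE 0.185, adjusted p = 0.00919), and its other tested probe was at 0.49. The glutathione transferases GSTA4 (-1.25, adjusted p = 0.0185) and GSTA3 (-0.62, adjusted p = 0.0336) were lower, neither of them above background in low-fertile pool 2, and their other tested probes were below 0 too.

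Of the other antioxidant and NRF2 genes, 13 of 18 were tested and 3 were lower. PGD, which makes NADPH in the pentose phosphate pathway, went from 189 and 208 to 71.0 and 67.0 (-1.44, SE 0.146, adjusted p = 0.0034), with its 3 other tested probes between -1.51 and 0.13. KEAP1, which holds NRF2 for degradation, went from 364 and 370 to 231 and 118 (-1.07, SE 0.276, adjusted p = 0.0406), and its other tested probe was at -0.03. Without low-fertile pool 2 it was at -0.67 (adjusted p = 0.0602). The ferritin heavy chain FTH1 was 0.56 lower (SE 0.149, adjusted p = 0.0443), and its 5 other tested probes ran from -0.68 to 0.34.

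Of the enzymes that make superoxide or peroxide, 8 of 15 were tested, none was lower and 2 were higher. CYBA, a membrane subunit of NADPH oxidases, went from 49.7 and 34.8 to 89.8 and 88.8 (1.19, SE 0.217, adjusted p = 0.0147), and its other tested probe was at 0.60. NOX3, an oxidase of the inner ear, went from 30.5 and 28.6 to 41.3 and 41.5 (0.58, SE 0.153, adjusted p = 0.0445). With spike-in scaling, which shifted the median of all tested probes to -0.43, 20 of the 45 redox genes passed, all of them lower, and CYBA, NOX3 and GSR no longer passed. Of all tested probes 38.2% then passed, 7536 lower and 492 higher.

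**Figure D4:**
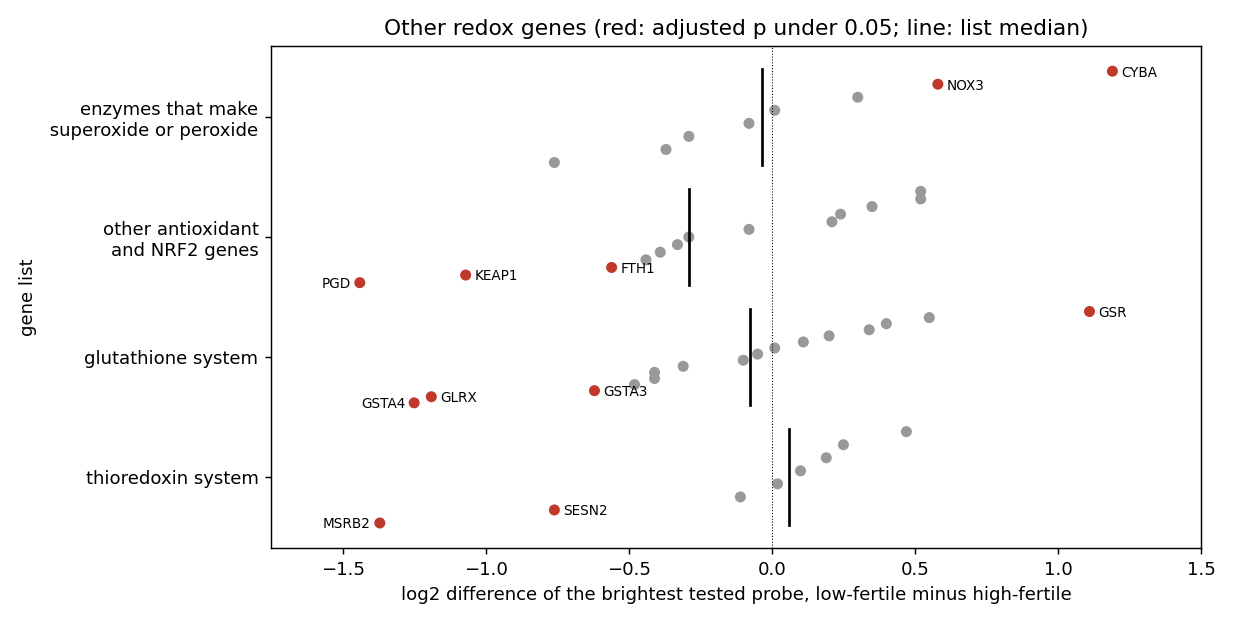
Log2 difference of the brightest tested probe of each of 45 redox genes, low-fertile minus high-fertile, in 4 lists; red points passed an adjusted p of 0.05 and vertical lines are list medians (0.06, -0.08, -0.29 and -0.04 from the thioredoxin list upward). The 8 lower genes lie between -1.44 and -0.56 as measured, and the 3 higher ones, GSR, CYBA and NOX3, at 1.11, 1.19 and 0.58.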

How the data were processed

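Sperm RNA of 2 high-fertile and 2 low-fertile pools was labelled with 1 dye and hybridized to 4 bovine arrays. The authors deposited the scanner output of Agilent Feature Extraction 11.5.1.1, whose linear intensities have the background subtracted and a surrogate value where a spot is not above it, and a table of log2 values shifted in GeneSpring GX by each array's 75th percentile. Of the 100 member values, 22 were surrogates, none of them at a tested probe. No spot was saturated, and no member spot was marked as an outlier or lay on a bright patch.

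From the scanner files, outlier spots were dropped, the other spots of a probe were averaged as log2 processed signals, and each array was centred on the 75th percentile of its sample probes (Python 3.11.15, pandas 2.3.3). Probes well above background (in at least 0.5 of their spots) in both pools of a group were fitted with limma 3.58.1 (R 4.3.3), and p-values were Benjamini-Hochberg adjusted. A script with this fit was run on simulated data. It recovered 0% of the changed probes at a log2 difference of 0.5, 2.49% at 1 and 77.7% at 2. Of its calls 5.77% were false. Fewer probes were changed there than were called here, so these shares may not carry over. All 25 member probes are reported. The redox genes named are those past an adjusted p of 0.05 at the tested probe with the highest mean signal, up to 8 in each direction. The members and lists were chosen with earlier results of these data known. Intensities carry no read depth, so the number of arrays limits the precision, as does the scanner's error for signals near background. Pools are taken as replicates, and p-values measure only the spread between them. The alternatives were the 75th percentile over another probe set, normexp background correction, other normalizations, filters and spot sets, a GC correction, an intensity trend, a replicate block, each pool left out (the lone pool of a group is then assumed to vary like the others), the deposited table and the methods' t-test. Sperm function and PCR values were not used here. Positions are those of Btau_3.1 in the files.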

Additional observations from a re-analysis of the deposited data

How the results depend on the processing

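The counts past an adjusted p of 0.05 were 5632 of all tested probes, 3 member probes, 1 member gene by its brightest probe (PRDX6) and 11 redox genes. With normexp correction the last 3 counts were 5 (4 lower), 2 and 17, beside 7295 of all probes. With spike-in scaling 5 member probes and 20 redox genes passed, all lower, beside 8028 of all probes, of which 7536 were lower. GC correction gave 1, 0 and 7, beside 3921. The percentile over probes above background on all arrays gave 7 redox genes, beside 5094 of all probes. Restricting the test to probes above background on all arrays left 1 member probe, GPX1 at base 537, beside 4339 of 12552 such probes. The PRDX6 probes were then not tested. An intensity trend gave 2 member genes, beside 6550 of all probes. Leaving out 1 pool at a time gave 2640 to 4989 probes, 1 to 4 member probes, 0 to 2 member genes and 2 to 9 redox genes. With no filter on dim probes limma called 0 probes, 0 member probes, 0 member genes and 0 redox genes (9278, 3, 1 and 9 at an unadjusted p below 0.05). The methods' t-test called 0 in each case as well (6084, 4, 2 and 11 unadjusted). The cause of these shifts was not tested.

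The PRDX6 probe at base 508 passed in every alternative run in which it was tested, other than the unfiltered fit (adjusted p = 0.12) and the methods' t-test with Benjamini-Hochberg adjustment (adjusted p = 0.11). The probe at base 1025 did not pass with GC correction (-0.41) or without high-fertile pool 1 or 2 or low-fertile pool 2 (-0.76, -0.72 and -0.68), and that at base 1615 not with GC correction (-1.17), without high-fertile pool 1 or 2 (-1.36 and -1.25) or with the percentile over probes above background on all arrays (-1.27). Signs turned at PRDX2 (-0.27), PRDX5 at base 337 (-0.05) and GPX4 at base 603 (-0.06) with spike-in scaling. They turned at GPX4 at base 456 with normexp correction (0.01), GC correction (0.10) and without low-fertile pool 1 (-0.13 to 0.01 over the pools left out), at GPX1 at base 778 with quantile normalization (0.03) and without low-fertile pool 2 (-0.44 to 0.33 over the pools left out), and at SESN2 by the median over its tested probes (0.07). No other tested member probe or named redox gene changed sign. All named redox genes other than PGD and GLRX lost their call without at least 1 pool, and KEAP1 also lost it in the deposited table. Calls were lost with quantile normalization at KEAP1 and MSRB2, and with the other percentile at MSRB2, SESN2, GSTA4, GSR and KEAP1. They were lost with GC correction at SESN2, GSTA3, FTH1 and NOX3, and with the replicate block at GSTA3, FTH1 and NOX3. With the median over the tested probes of a gene they were lost at SESN2, GLRX, GSR, KEAP1 and FTH1.

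With the replicate number as a block, the 4 counts were 5331, 3, 1 and 8, and the same 3 PRDX6 probes passed. The pools share only a number: deviations of same-numbered pools from their group means had r = 0.00548 over 21024 probes. Low signal limits the values most in low-fertile pool 2, where 4 of 25 member probes were well above background.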
